A study of Mus musculus with 23 samples.

Results

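H3K27me3 in Ebf2-EGFP+ cells of the mouse embryonic cerebral cortex was compared between E11.5 and E13.5, as 1 deposited list of ChIP-seq peaks for each stage. The E11.5 list held 6387 peaks and the E13.5 list 6721, together 13108 of the 230624 peaks in the 8 lists of the series. Peaks were divided into those that overlapped a peak of the other stage by at least 1 bp, called shared, and those that did not. The transcription start site (TSS) of each of 21938 protein-coding genes was called marked where any part of a peak came within 5 kb.

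Embryos carried the transgene Tg(Ebf2-EGFP)FB58Gsat in all groups used here, and regulatory sequence of Ebf2 drives its EGFP, so a sorted cell is defined by Ebf2 reporter activity and not by 1 cell type. The EGFP+ cells of E11.5 are mainly neurons of the preplate (Cajal-Retzius, CR, and subplate neurons), whereas by E15.5 they are nearly all CR cells, so that a difference between stages cannot be told apart from a change in the mix of cells. Each H3K27me3 list belongs to 2 libraries of EGFP+ cells purified by fluorescence-activated cell sorting. The other lists used for comparison were H3K27me3 of E11.5 Ebf2-EGFP- cells, mostly progenitors, H3K27me3 of E15.5 Ebf2-EGFP+ cells, and H3K27ac of Ebf2-EGFP+ cells at the 3 stages. All peak scores were 0 and no read counts were listed, so the depth behind a peak is unknown and a missing peak does not show a missing mark. With a single list per stage there was no replicate error, no test between stages was possible, and the Wilson 95% confidence intervals (CI) cover counting over peaks or genes only.

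H3K27me3 is the product of Polycomb repressive complex 2 (PRC2), whose catalytic subunit Ezh2 or Ezh1 trimethylates lysine 27 of histone H3. Polycomb repressive complex 1 binds the mark through its Cbx subunits. In vertebrates the mark is best known at unmethylated, CpG-rich promoters of developmental regulators, among them the Hox clusters, where it keeps the regulators of other lineages and body regions silent. Acetylation of the same residue, H3K27ac, marks active promoters and enhancers, and 1 histone tail cannot carry both.

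The sequences below are shown because they carry the main contrasts between the stages, and all are from the plus strand of mm10 (GRCm38). The first pair are the shared peaks with the TSS of a developmental or signalling gene within 5 kb that could be shown whole within 300 bp. Capitals mark the bases that lay in the peaks of both stages. The Evx1 sequence (chr6:52313976-52314174) is 199 bp of coding sequence with 62 bp in both peaks, and the Figla sequence (chr6:86017354-86017607) is 254 bp with 61 bp in both peaks.
Evx1, shared: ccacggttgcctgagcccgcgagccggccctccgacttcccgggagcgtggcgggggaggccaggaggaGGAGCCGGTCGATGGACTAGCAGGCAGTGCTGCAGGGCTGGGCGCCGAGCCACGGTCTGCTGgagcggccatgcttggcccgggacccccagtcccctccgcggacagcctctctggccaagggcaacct
Figla, shared: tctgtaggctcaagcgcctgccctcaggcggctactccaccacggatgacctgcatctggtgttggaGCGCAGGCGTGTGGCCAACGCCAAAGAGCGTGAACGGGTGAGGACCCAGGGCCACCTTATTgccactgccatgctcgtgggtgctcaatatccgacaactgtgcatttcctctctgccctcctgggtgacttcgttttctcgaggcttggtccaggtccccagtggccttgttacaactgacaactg

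The next 4 peaks were listed at E13.5 and not at E11.5, and CpG dinucleotides are in capitals. The peak upstream of Hoxa9 (chr6:52234633-52234915) is 283 bp long with 26 CpG, and lies wholly in coding sequence of the neighbouring Hoxa10. The peak upstream of Hoxb2 (chr11:96346096-96346326) has 231 bp and 17 CpG in coding sequence of Hoxb3. The Ebf2 peak (chr14:67230433-67230616) has 184 bp and 6 CpG in intergenic sequence, whereas the Ebf3 peak (chr7:137314487-137314691) has 205 bp and 39 CpG just upstream of the Ebf3 TSS.
Hoxa9, E13.5: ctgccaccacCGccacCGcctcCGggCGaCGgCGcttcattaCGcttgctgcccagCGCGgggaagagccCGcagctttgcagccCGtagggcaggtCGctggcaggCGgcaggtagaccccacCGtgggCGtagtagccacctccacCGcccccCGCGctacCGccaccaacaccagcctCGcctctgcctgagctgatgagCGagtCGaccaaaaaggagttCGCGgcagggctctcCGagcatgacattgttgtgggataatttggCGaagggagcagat
Hoxb2, E13.5: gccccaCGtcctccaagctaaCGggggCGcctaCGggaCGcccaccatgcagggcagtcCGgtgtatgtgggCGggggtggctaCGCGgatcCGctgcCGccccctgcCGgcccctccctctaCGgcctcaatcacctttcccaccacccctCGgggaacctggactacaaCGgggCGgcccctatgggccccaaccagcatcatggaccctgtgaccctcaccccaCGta
Ebf2, E13.5: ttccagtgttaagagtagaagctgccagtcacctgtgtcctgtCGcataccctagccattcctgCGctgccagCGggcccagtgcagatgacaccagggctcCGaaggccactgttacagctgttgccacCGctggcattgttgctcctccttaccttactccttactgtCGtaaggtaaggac
Ebf3, E13.5: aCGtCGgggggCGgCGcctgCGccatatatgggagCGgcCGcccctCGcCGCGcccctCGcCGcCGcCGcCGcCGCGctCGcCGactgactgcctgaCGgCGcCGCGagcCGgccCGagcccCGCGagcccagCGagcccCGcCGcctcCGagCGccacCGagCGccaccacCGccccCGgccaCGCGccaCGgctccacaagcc

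The last pair come from peaks listed at E11.5 with no overlapping peak at E13.5, again with CpG in capitals. The Klf4 peak (chr4:55530196-55530404) is 209 bp of Klf4 coding sequence with 16 CpG. The Nr2f6 peak (chr8:71380484-71380696) has 213 bp and 23 CpG in an intron. The peaks at Hox genes, Ebf2 and Ebf3 and the E11.5 peaks shown were chosen after their values were seen.
Klf4, E11.5: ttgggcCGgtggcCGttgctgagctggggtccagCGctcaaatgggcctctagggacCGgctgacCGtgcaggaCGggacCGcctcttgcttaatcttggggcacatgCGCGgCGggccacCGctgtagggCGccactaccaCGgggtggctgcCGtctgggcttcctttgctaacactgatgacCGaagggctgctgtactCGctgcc
Nr2f6, E11.5: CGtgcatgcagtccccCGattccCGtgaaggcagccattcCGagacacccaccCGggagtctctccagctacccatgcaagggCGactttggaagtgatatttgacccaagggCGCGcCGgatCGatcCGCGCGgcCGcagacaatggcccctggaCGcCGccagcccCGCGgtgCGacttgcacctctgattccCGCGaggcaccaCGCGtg

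The lists were of similar length and shared few positions. In all, 171 of the 6387 E11.5 peaks (2.68%, CI 2.31 to 3.10) overlapped a peak of E13.5, and 170 of the 6721 E13.5 peaks (2.53%, CI 2.18 to 2.93) overlapped 1 of E11.5. The overlap had a median of 116 bp and ranged from 2 to 415 bp, and in 132 of the 171 peaks it took up at least 50% of the shorter peak. Peaks were narrow at both stages, with a median width of 153 bp (quartiles 127 and 194) at E11.5 and 146 bp (quartiles 122 and 186) at E13.5, and the lists covered 1083 kb and 1111 kb. Shared peaks were a little wider, with a median of 164 bp in the E11.5 list and 173.5 bp in the E13.5 list, and a wider peak is more likely to overlap another. Peaks of the other stage were often in the same neighbourhood without overlap. A peak of the other stage lay within 1 kb of 4.81% of the E11.5 peaks, within 10 kb of 17.4% and within 50 kb of 46.5%, and these shares were 4.82%, 17.4% and 46.5% for the E13.5 peaks.

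The 10 shared peaks with the longest overlap had 223 to 415 bp in common, and 1 of them lay within 5 kb of a coding TSS. That peak, near the TSS of Tmem125, a gene for a transmembrane protein, had 250 bp in common. The longest overlap, of 415 bp, lay in an exon 70474 bp from the TSS of Smgc, a gene of secretory glands, and the next was intergenic and nearest to the TSS of the autophagy gene Atg7. Of these 10 peaks, 8 were also listed for progenitor H3K27me3 and for H3K27ac at both stages. Such multiple listing was frequent among shared peaks as a group. Of the 171 shared E11.5 peaks, 62 (36.3%) overlapped H3K27ac peaks of both stages and a progenitor H3K27me3 peak. Of the unshared E11.5 peaks, 346 (5.57%) did. For the E13.5 peaks the shares were 34.7% and 6.37%.

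Peaks of E13.5 lay closer to promoters and in sequence richer in CpG than those of E11.5. Peak centres within 1 kb of a coding TSS made up 389 of 6387 peaks (6.09%, CI 5.53 to 6.70) at E11.5 and 1131 of 6721 (16.8%, CI 16.0 to 17.7) at E13.5, where 1.495% of 200000 random genome positions did. The first 1 kb downstream of a TSS alone held 4.87% of the E11.5 and 13.1% of the E13.5 peak centres. Intergenic centres made up 29.4% and 26.0%, and intronic centres 42.7% and 36.3%. Peaks found only at E11.5 had a median of 1.69 CpG per 100 bp and those found only at E13.5 had 2.56, with 5 or more CpG per 100 bp in 11.6% and 28.1%. Shared peaks had medians of 3.14 (E11.5 list) and 3.24 (E13.5 list), so CpG density was highest in the peaks listed at both stages. The GC content followed the same order, with medians of 56.3% at E11.5 only, 58.2% at E13.5 only and 62.4% or 62.9% for shared peaks. Soft-masked repeats filled at least 50% of the length of 13.4% of the E11.5 and 11.1% of the E13.5 peaks.

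**Figure D1:**
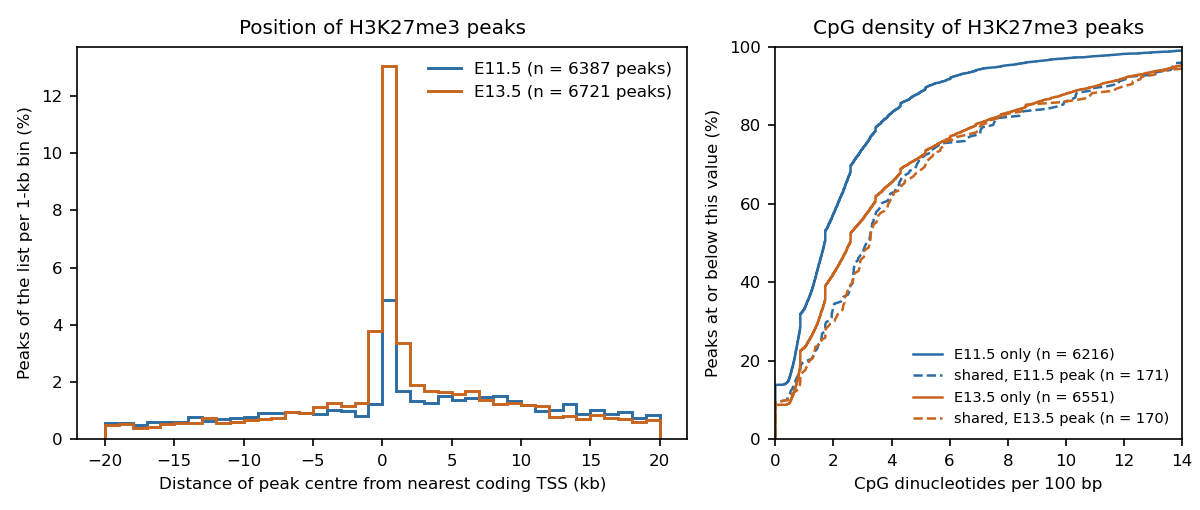
Left, percent of the peaks of each list per 1-kb bin against the signed distance (kb) of the peak centre from the nearest protein-coding TSS, negative upstream; right, cumulative percent of peaks against CpG dinucleotides per 100 bp for peaks of 1 stage only (solid) and shared peaks (dashed). The bin just downstream of the TSS holds 4.87% of the E11.5 and 13.1% of the E13.5 peaks, and the curve of peaks found only at E11.5 lies to the left of the other 3.

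Coding exons held a large share of both lists. Annotated coding sequence made up 1.33% of the genome, but 16.8% of the bases under E11.5 peaks and 18.8% of those under E13.5 peaks. Coding sequence was touched by 23.6% (CI 22.5 to 24.6) of the E11.5 peaks and 25.8% (CI 24.8 to 26.9) of the E13.5 peaks, so in this respect the stages were close. The share was higher in peaks within 5 kb of the TSS of a developmental transcription factor, where coding sequence made up 60.3% of the bases in 30 peaks at E11.5 and 45.7% in 198 peaks at E13.5. Coding exons are rich in GC, and whether base composition contributed to these shares was not tested.

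At the level of genes, E13.5 had more marked TSS than E11.5, by a factor of 1.89, from a list of similar length. A peak lay within 5 kb of 1080 of 21938 TSS (4.92%, CI 4.64 to 5.22) at E11.5 and of 2043 (9.31%, CI 8.94 to 9.70) at E13.5. Both stages marked 187 TSS (0.852%), E11.5 only 893 (4.07%) and E13.5 only 1856 (8.46%). Of the TSS marked at E11.5, 17.3% (CI 15.2 to 19.7) were also marked at E13.5, against 8.90% of the TSS not marked at E11.5. Among the 187 TSS marked at both stages, 36 (19.3%) had overlapping peaks. The other TSS had a median of 2460 bp between the nearest peaks of the stages, and the gap was over 1 kb at 114 of them, so a gene marked at both stages was seldom marked at the same site. Single peaks were the rule, with 2 or more peaks at 5.65% of the marked TSS at E11.5 and 10.8% at E13.5. Promoters rich in CpG (observed to expected CpG of at least 0.75 and GC of at least 55% within 500 bp of the TSS) were marked as often as other promoters at E11.5, with 4.88% and 4.94%. At E13.5 they were marked more often, with 12.7% (CI 11.9 to 13.7) against 8.19% (CI 7.78 to 8.62).

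Developmental transcription factors were marked far more often at E13.5 than at E11.5. Of 422 genes in 20 families chosen by symbol, 30 (7.11%, CI 5.02 to 9.97) were marked at E11.5, where 4.92% of all TSS were, and 147 (34.8%, CI 30.4 to 39.5) at E13.5, where 9.31% of all TSS were. Coding genes outside these families went from 4.88% to 8.81%, a factor of 1.81 against 4.90 for the developmental families. Counts were higher at E13.5 in 18 of the 20 families and equal in LIM homeodomain and Dlx genes. They were also higher in 6 of 6 signalling, 7 of 7 neuronal and 7 of 9 reference families. The direction was thus not particular to developmental factors. Among the developmental families, the CI of the stages did not overlap for 3, Irx, Hox and other homeodomain genes. The 147 genes had 198 distinct peaks near them, some genes with several and some neighbours with 1 peak in common. The share at E13.5 was 35.0% for developmental genes with a CpG-rich promoter and 34.7% for the others, whereas genes outside the families had 12.2% and 7.72%.

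**Figure D2:**
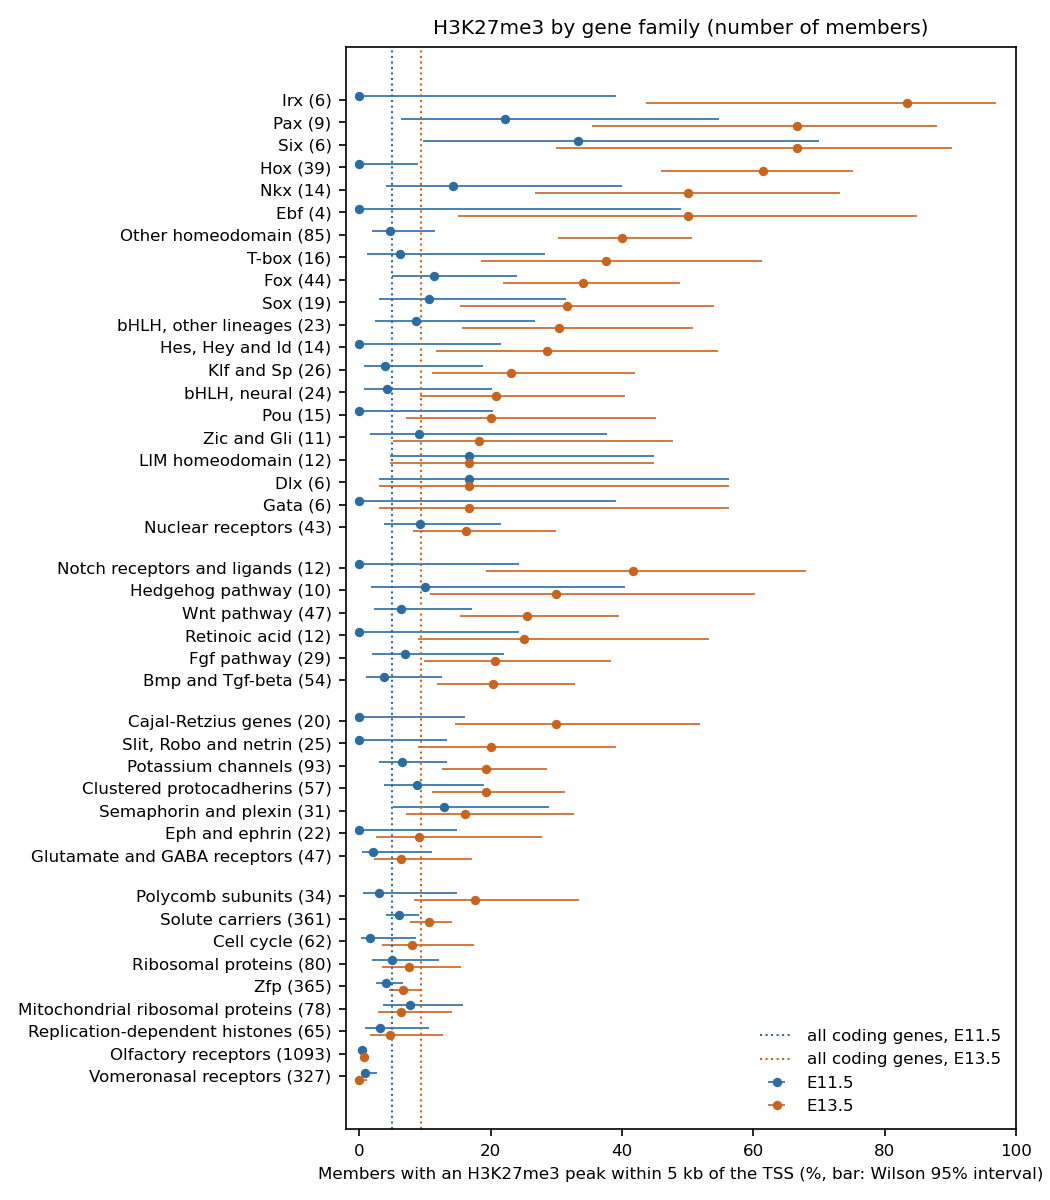
Percent of the members of each gene family with an H3K27me3 peak within 5 kb of the TSS at E11.5 (blue) and E13.5 (orange), with Wilson 95% intervals, the number of members in parentheses and dotted lines for all coding genes (4.92% and 9.31%). Families are grouped as developmental, signalling, neuronal and reference from top to bottom. Irx, Hox and other homeodomain genes lie far to the right at E13.5, and olfactory and vomeronasal receptor genes stay below the dotted lines at both stages.

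Homeodomain genes made up much of the E13.5 count. For comparison, all TSS were marked at 4.92% at E11.5 and 9.31% at E13.5. Irx genes, proneural and patterning factors that lie in clusters, had 0 of 6 members marked at E11.5 and 5 of 6 at E13.5. Irx3 and Irx2 each had 4 peaks within 5 kb, Irx1, Irx5 and Irx6 had 2 each, and these 5 genes had 14 distinct peaks. Pax genes, regulators of eye, spinal cord and kidney among other organs, had 2 of 9 marked at E11.5 (Pax3 and Pax4). At E13.5, 6 of 9 were marked (Pax1, Pax2, Pax5, Pax6, Pax7 and Pax8), with no gene in common. Of all TSS marked at E11.5, 17.3% were also marked at E13.5. Nkx genes, ventral and mesodermal regulators, had 2 and 7 of 14 members marked, with Nkx2-1, the determinant of the ventral telencephalon, at E13.5. The family of Six2 and Six4 had 2 and 4 of 6. Other homeodomain genes had 4 of 85 (Barhl2, Evx1, Noto and Vax1) and 34 of 85 members marked. The 34 included the midbrain and hindbrain genes En1 and En2, the motor neuron gene Mnx1 and the caudal genes Cdx1 and Cdx4. They also included Gbx1, Otx1 and the telencephalic genes Emx2 and Gsx1.

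Forkhead, T-box, Sox and basic helix-loop-helix (bHLH) families had more members marked at E13.5 as well. Of all TSS, 4.92% were marked at E11.5 and 9.31% at E13.5, and the CI of the stages overlapped for each family named here. Fox genes had 5 and 15 of 44, and at E13.5 these included the endodermal and mesodermal factors Foxa1, Foxc1, Foxc2 and Foxf1, of which Foxc1 and Foxf1 had 3 peaks each. T-box genes, regulators of mesoderm and limb, had 1 and 6 of 16. Sox genes had 2 and 6 of 19, among them Sox10 of the neural crest and Sox17 and Sox18 of endoderm and vessels. Neural bHLH genes had 1 of 24 marked at E11.5 and 5 of 24 at E13.5. These 5 were the oligodendrocyte and motor neuron genes Olig1 and Olig2, with Olig3, Neurod1 and Neurod6. The bHLH genes of other lineages had 2 and 7 of 23, with Myod1, the muscle determinant, and Hand2, of heart and limb, at E13.5. Hes, Hey and Id genes had 0 and 4 of 14. Nuclear receptors had 4 and 7 of 43, or 9.30% and 16.3%.

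The Hox clusters were without H3K27me3 peaks at E11.5 and carried them at E13.5. Hox genes specify position along the body axis behind the forebrain and are silent in the cortex. None of the 39 Hox TSS was marked at E11.5 (CI 0 to 8.97%) and 24 of 39 (61.5%, CI 45.9 to 75.1) were marked at E13.5. The 4 clusters span 491.8 kb together and held 0 H3K27me3 peaks at E11.5 and 30 at E13.5. Hoxa had 8 of the 30 peaks, Hoxb 10, Hoxc 6 and Hoxd 6, so that all 4 clusters contributed, with 7 of 11, 7 of 10, 5 of 9 and 5 of 9 TSS marked. The nearest E11.5 peak was 30.5 kb from Hoxa, 37.8 kb from Hoxb, 138 kb from Hoxc and 1071 kb from Hoxd. The E13.5 peaks were single narrow sites, and covered 5724 bp of the clusters. Hoxb2 had the most peaks of the family at its TSS, with 3, and Hoxa9, Hoxc9 and Hoxd13 had 2 each. Of the 30 peaks, 13 touched coding sequence, as the Hoxa9 and Hoxb2 sequences above do.

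**Figure D3:**
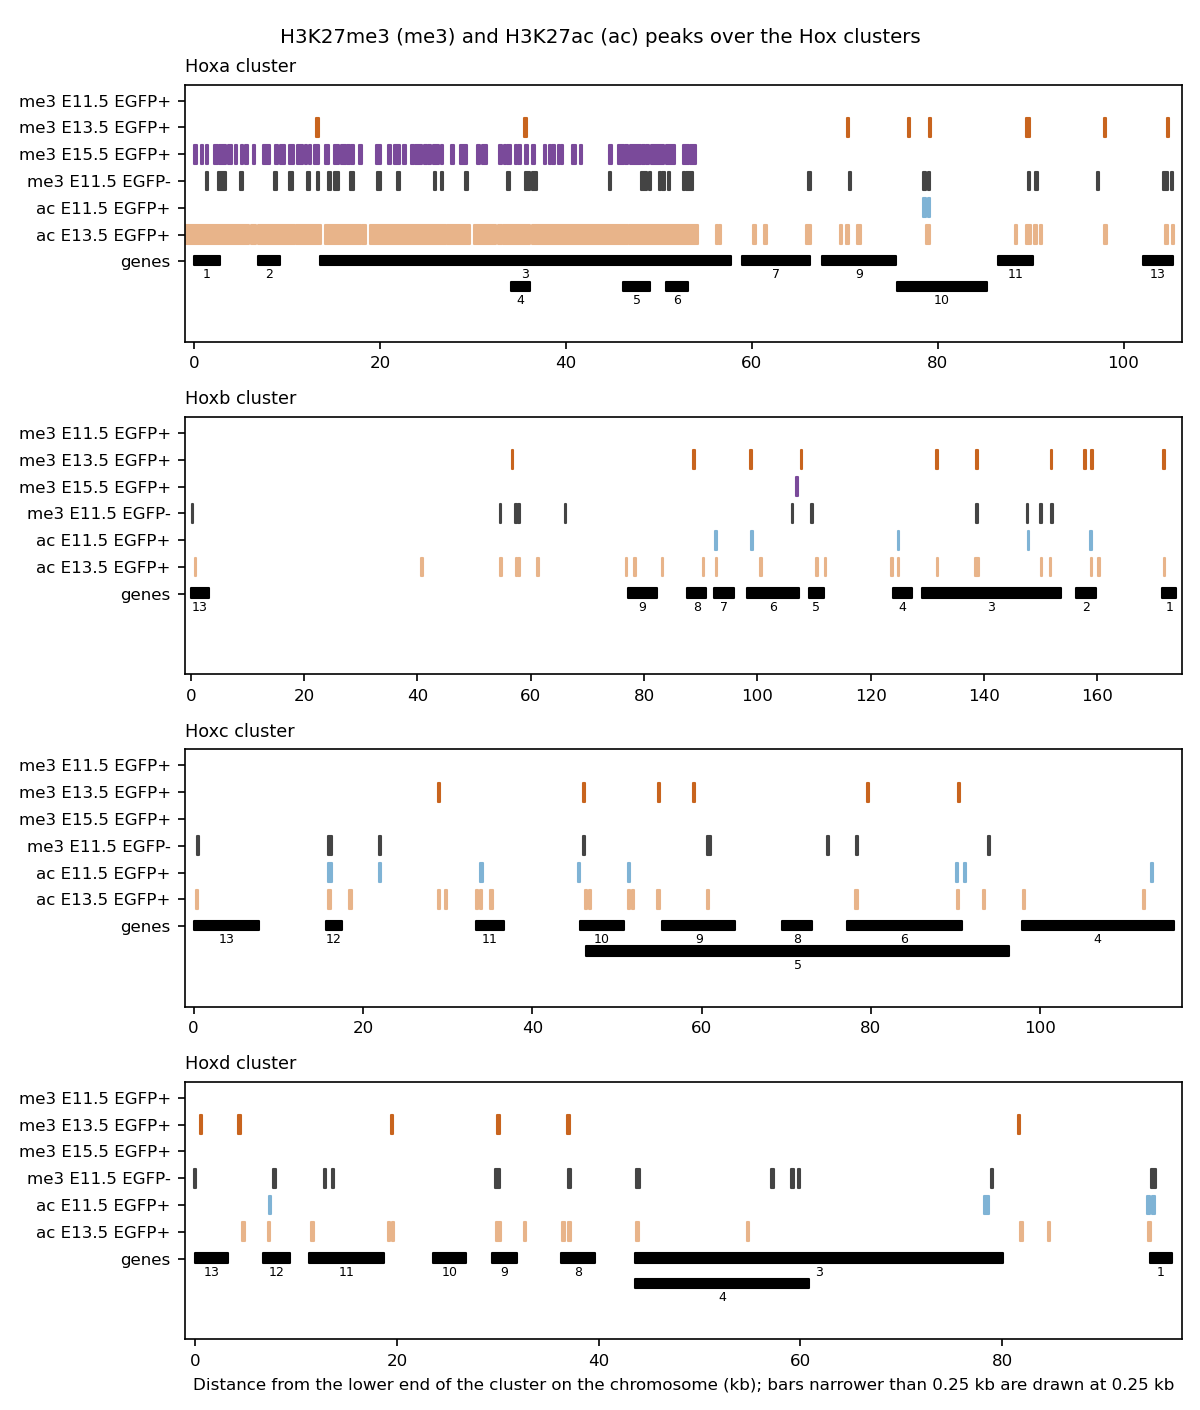
Peaks of 6 lists over the Hoxa, Hoxb, Hoxc and Hoxd clusters, 1 panel each, against distance (kb) from the lower end of the cluster on the chromosome; coloured bars are peaks, drawn at least 0.25 kb wide, and black bars are genes with their number. The row for H3K27me3 (me3) at E11.5 is empty in all 4 panels, the E13.5 row holds 30 peaks, and H3K27ac (ac) at E13.5 and H3K27me3 at E15.5 fill the left part of the Hoxa panel.

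The longer list of progenitors, with 48963 peaks in all against 6721 at E13.5, held 66 peaks over 18721 bp of the 4 clusters. Of these, 35 peaks and 10984 bp lay in Hoxa. It marked 28 of 39 Hox TSS, and 16 of the 24 TSS marked at E13.5 were among them. For comparison 48.2% of all TSS were marked in progenitors. All 24 TSS also had H3K27ac within 5 kb in the E13.5 list, which marked 38 of 39 Hox TSS and 60.9% of all TSS. Hoxa needs care in this comparison. A block of 145.8 kb (chr6:52066450-52212233) that begins outside the cluster and ends 56.6 kb into it was covered to 89.5% by 62 H3K27ac peaks at E13.5 and to 98.2% by 3 H3K27ac peaks at E15.5. Of H3K27me3, the same block held 139 peaks at E15.5, 36 in progenitors, 4 at E13.5 and 0 at E11.5. The TSS of 5 Hoxa genes lie in it. Without Hoxa, 17 of 28 Hox TSS were marked by H3K27me3 at E13.5, all 17 with H3K27ac within 5 kb. Progenitors also had 17 of these 28 TSS marked, and 9 TSS were marked in both lists. The H3K27me3 list of E15.5, with 1438 peaks in all, marked 1 of the 28. Over Hoxb, Hoxc and Hoxd the E13.5 list had 22 peaks and the progenitor list 31, and at Hoxb progenitors had 3 of 10 TSS marked against 7 at E13.5. The origin of the block was not tested.

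Most developmental and signalling genes marked at both stages had separate sites, as did most TSS of any kind marked at both. Among all 187 such TSS, 36 (19.3%) had overlapping peaks. Both stages marked 13 of 422 developmental factors (3.08%, CI 1.81 to 5.20) and 2 of 164 signalling genes (1.22%, CI 0.335 to 4.34), where 0.852% of all TSS were marked at both. Of the developmental factors marked at E11.5, 13 of 30 (43.3%, CI 27.4 to 60.8) were also marked at E13.5, and of those not marked at E11.5 134 of 392 (34.2%, CI 29.7 to 39.0) were. The intervals of these shares overlap. The peaks overlapped at Evx1, a homeodomain gene of the spinal cord next to Hoxa, and at Figla, a germ cell bHLH gene. At Sox13 the E11.5 peak of 116 bp and the E13.5 peak of 230 bp were 11 bp apart within the first 1 kb of the gene, in sequence with 15.52 and 15.22 CpG per 100 bp. Gaps were 414 bp at Nkx6-1, 517 bp at Vax1, 727 bp at Six4, 842 bp at Ptch1, the receptor of hedgehog ligands, 1046 bp at Lhx3 and 1218 bp at Klf4. The gaps were longer at Foxh1, Foxj1, Fgf3, Sox8, Tbx10 and Foxb1, from 1722 to 5957 bp. These peaks were 116 to 306 bp wide, and only Vax1 had more than 1 peak at a stage, with 2 at E13.5.

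A further 17 of the 422 developmental factors were marked at E11.5 only, where 4.07% of all TSS were. Developmental factors made up 1.90% of the TSS marked at E11.5 only and 1.92% of all TSS. The count of these 17 factors was thus close to the share of all TSS. Among them were Dlx2 and Lhx6, factors of the ventral telencephalon and its interneurons, the dorsal neural tube gene Pax3 and the nuclear receptors Nr2f6, Nr1h2, Esr2 and Vdr. Each had a single peak. The peak at Lhx6 was 139 bp wide and centred 32 bp upstream of the TSS, and that at Dlx2 164 bp wide and centred 2174 bp downstream.

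CR genes were unmarked at E11.5 and partly marked at E13.5. Of 20 genes taken from the text of the study, 0 were marked at E11.5 (CI up to 16.1%) and 6 (30.0%, CI 14.5 to 51.9) at E13.5, against 4.92% and 9.31% of all TSS. Some of these genes were picked by the study on expression in the same kinds of cells, so the list is not independent of these samples. The 6 genes were Ebf2, whose regulatory sequence drives the reporter, its paralogue Ebf3, the p53 family member Trp73, the axon guidance ligand Slit1, the glucuronyltransferase B3gat1, which makes the HNK-1 epitope, and the phosphatase subunit Ppp2r2c. Reln, which encodes the secreted Reelin, and Calb2, Lhx1, Lhx5, Nhlh2 and Tbr1 had no H3K27me3 peak within 5 kb at either stage.

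At Ebf3 the E13.5 peaks of 176 and 205 bp were centred 191 bp downstream and 144 bp upstream of the TSS, and both overlapped an H3K27ac peak of E13.5. B3gat1 had a peak of 154 bp centred on the TSS, which also overlapped H3K27ac. The Ebf2 peak had 184 bp and was intergenic, centred 2768 bp upstream of the TSS, and the Trp73 peak had 116 bp and was centred 2162 bp upstream of its TSS, where it overlaps the neighbouring gene Wrap73. Neither overlapped H3K27ac of E13.5, though both TSS had an H3K27ac peak within 5 kb. The transgene also holds regulatory sequence of Ebf2, and peak positions do not tell its reads from those of the Ebf2 gene. Whether the transgene includes the sequence under the Ebf2 peak was not tested. Slit1 had 1 peak of 207 bp centred 441 bp downstream, and Ppp2r2c had 2 peaks, of 156 and 116 bp. All 6 genes were also marked in progenitors, as were 15 of the 20 genes of the list and 48.2% of all TSS, and Trp73 was the 1 of the 20 genes that was marked at E15.5. At 5 of the 6, H3K27ac was listed within 5 kb at E13.5, the exception being Ppp2r2c, and it was listed at 17 of the 20 genes and at 60.9% of all TSS.

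Signalling genes were marked at 8 of 164 TSS (4.88%, CI 2.49 to 9.33) at E11.5, the share of all TSS being 4.92%, and at 40 of 164 (24.4%, CI 18.5 to 31.5) at E13.5, where it was 9.31%. Among ligands, Wnt genes and their partners had 3 and 12 of 47 members marked, with Wnt2b, Fzd9 and Sfrp4 at E11.5 and Wnt1, Wnt3a, Wnt4, Wnt6, Wnt7a, Wnt7b, Wnt10b, Wnt11 and Wnt16 among those of E13.5. Wnt10b had 4 peaks. Fgf genes had 2 and 6 of 29, with Fgf8, the organizer signal of midbrain and forebrain, at E13.5. Bmp and Tgf-beta genes had 2 and 11 of 54, and the E13.5 genes included the ligand Nodal and the secreted inhibitors Nog and Chrd. Notch receptors and ligands had 0 and 5 of 12 (Dll1, Dll4, Jag2, Notch3 and the modifier Mfng). The hedgehog pathway had 1 and 3 of 10, and retinoic acid genes 0 and 3 of 12.

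Neuronal gene families were marked at 16 of 294 TSS (5.44%, CI 3.38 to 8.66) at E11.5, close to the 4.92% of all TSS, and at 49 of 294 (16.7%, CI 12.8 to 21.4) at E13.5, where 9.31% of all TSS were marked. Slit, Robo and netrin genes, which guide axons, had 0 and 5 of 25 marked, semaphorins and plexins 4 and 5 of 31, and Eph and ephrin genes 0 and 2 of 22. Potassium channel genes had 6 and 18 of 93, with no gene in common, where 17.3% of all TSS marked at E11.5 were also marked at E13.5. Glutamate and GABA receptor genes had 1 and 3 of 47. The clustered protocadherins, cell adhesion genes with alternative promoters, had 5 and 11 of 57 and none in common.

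Some genes of the Polycomb machinery were themselves in the E13.5 list, at a share whose CI included that of all TSS. Of 34 subunit genes, 1 (2.94%, CI 0.521 to 14.9) was marked at E11.5, the PRC1 gene Phc3, where 4.92% of all TSS were. At E13.5, where 9.31% of all TSS were, 6 (17.6%, CI 8.35 to 33.5) were marked, among them the PRC1 genes Bmi1, Phc1, Cbx6 and Cbx8 and the PRC2 accessory gene Aebp2. The Bmi1 peak had 145 bp centred 192 bp downstream of the TSS and overlapped H3K27ac. All 6 were marked in progenitors too, as were 25 of the 34 subunit genes. Among families taken for reference, ribosomal protein genes had 4 and 6 of 80 members marked, mitochondrial ribosomal protein genes 6 and 5 of 78, cell cycle genes 1 and 5 of 62, Zfp genes 15 and 24 of 365 and solute carriers 22 and 38 of 361. Olfactory receptor genes had 4 and 8 of 1093 and vomeronasal receptor genes 3 and 0 of 327, below the share of all TSS at both stages.

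The 10 genes with the most peaks at E13.5 were not those of E11.5, and 9 of them lay in a single run of peaks. At E11.5 the 10 genes with the most peaks had 2 to 4 each. AW822073 had 4 peaks at both stages. Vcam1, an adhesion molecule, Matk, a kinase, the zinc finger gene Zfp710, Shank3, a postsynaptic scaffold, Thada, Lypla2 and Ints1 had 3 peaks each at E11.5 and 0 or 1 at E13.5. Tmem125 had 2 peaks at E11.5 and 4 at E13.5, and Kcnv2, a channel subunit, had 2 and 0. At E13.5, 9 of the 10 genes were predicted genes on chromosome 9 (Gm10717, Gm10718, Gm17535 and others) with 7 to 15 peaks each, from a single run of 45 peaks over 37734 bp near the lower end of the chromosome. Windows of 5 kb around neighbouring TSS of this run overlap, so the same peak was counted for several of these genes. The remaining gene, Gm21738 on chromosome 14, had 5. These genes had 0 peaks at E11.5, and their progenitor and E13.5 H3K27ac counts were similarly high, with 15 and 17 peaks at Gm10717.

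Runs of peaks were larger at E13.5. Runs of at least 3 peaks spaced by no more than 5 kb numbered 52 at E11.5, with 201 peaks and at most 11 in a run, and 73 at E13.5, with 344 peaks. Genes in E13.5 runs included Onecut3, a homeodomain gene with 8 peaks in its run. Among the widest E13.5 peaks, 2 of 1233 and 766 bp lay on chromosome 17 (39843649 to 39844881 and 39845745 to 39846510), 1 of 1052 bp at Gm10800 on chromosome 2 was soft-masked over 81.7% of its length, and 1 of 753 bp lay 401 bp downstream of the TSS of H2-Q1. The fifth, of 908 bp on chromosome 1, was shared with E11.5. Among the widest E11.5 peaks were those of 739 bp in an intron of the kinase gene Taok2, 689 bp upstream of Emid1, 658 bp near Smgc and 652 bp in an intron of Mid1 on the X chromosome. Leaving out every run of 5 or more peaks left the developmental count at 30 of 422 at E11.5 and 146 of 422 at E13.5.

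Part of the H3K27me3 peaks overlapped H3K27ac, and most marked TSS had H3K27ac nearby. H3K27ac peaks of the same stage overlapped 21.2% of the E11.5 peaks and 38.4% of the E13.5 peaks, and 57.9% and 70.0% of the shared peaks. The H3K27ac list of E13.5 is the longest, with 102881 peaks against 37055 at E11.5, which alone raises the share that overlap it. Against 1 fixed list the order of the stages depended on the list. H3K27ac of E11.5 overlapped 21.2% of the E11.5 and 17.7% of the E13.5 peaks, whereas H3K27ac of E13.5 overlapped 26.1% and 38.4%. At the TSS, H3K27ac of E13.5 was within 5 kb of 82.0% of the TSS marked by H3K27me3 at E11.5 only, 89.3% of those marked at E13.5 only and 97.9% of those marked at both stages, against 56.8% of those marked at neither and 60.9% of all. H3K27ac of E11.5 gave 70.3%, 70.3% and 81.3%, against 49.9% of all TSS. Among developmental factors, 142 of the 147 marked at E13.5 had H3K27ac at that stage (96.6%, CI 92.3 to 98.5), and so did 231 of the 275 that were not marked (84.0%, CI 79.2 to 87.9).

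**Figure D4:**
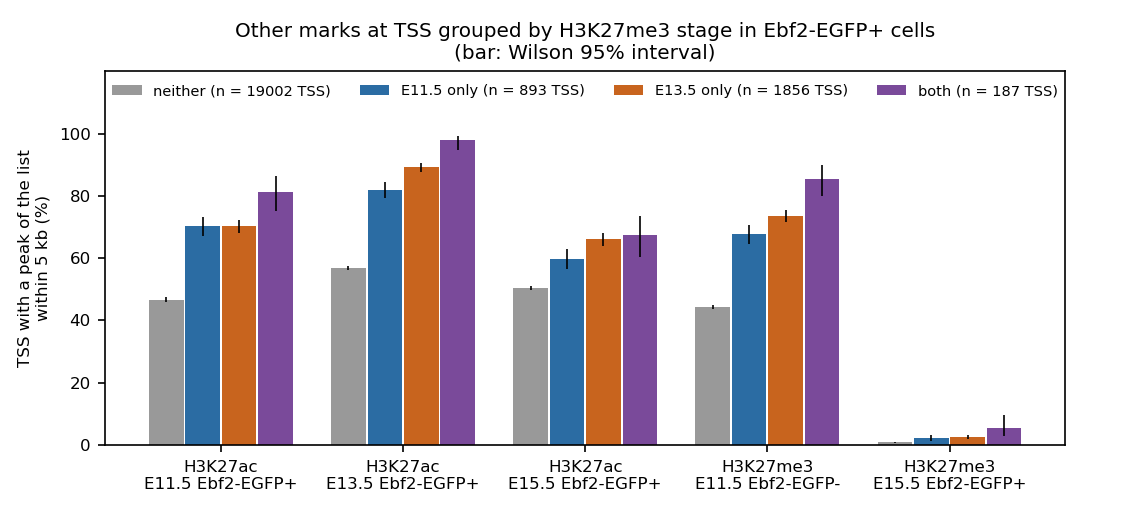
Percent of TSS with a peak of each of 5 other lists within 5 kb, for TSS marked by H3K27me3 in Ebf2-EGFP+ cells at neither stage, at E11.5 only, at E13.5 only or at both; thin lines are Wilson 95% intervals. TSS marked at neither stage have the lowest bar in every list, and those marked at both have 97.9% for H3K27ac of E13.5 and 85.6% for H3K27me3 of progenitors.

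Most of the TSS listed in neurons at either stage were also listed in progenitors. H3K27me3 of E11.5 Ebf2-EGFP- cells was within 5 kb of 67.6% of the TSS marked at E11.5 only, 73.5% of those at E13.5 only and 85.6% of those at both, against 48.2% of all TSS. For developmental factors the progenitor share was already high, at 75.6% of all 422, and the 147 marked at E13.5 (118, 80.3%, CI 73.1 to 85.9) had CI that overlapped those of the 275 not marked (201, 73.1%, CI 67.6 to 78.0). Peak by peak the overlap was smaller. Progenitor peaks overlapped 17.1% of the E11.5 and 21.3% of the E13.5 peaks, and 52.0% and 51.8% of the shared peaks. Few sites were listed again at E15.5, whose list had 1438 peaks. It marked 2.13% of the TSS marked at E11.5 only, 2.42% of those at E13.5 only and 5.35% of those at both, against 1.06% of all TSS. It marked 4 of the 147 developmental factors marked at E13.5 (2.72%) and 9 of the 275 not marked (3.27%).

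The labelled cell type was checked by H3K27ac at the TSS of marker genes. Of 9 CR markers 8 had H3K27ac within 5 kb at E11.5 and 9 at E13.5, and of 5 early neuronal and subplate markers found 4 and 3 did. Progenitor markers had 5 and 6 of 6, GABAergic markers 4 and 5 of 6, endothelial markers 1 and 3 of 5, microglial markers 2 and 4 of 5, erythroid markers 0 and 2 of 4 and meningeal markers 2 and 3 of 5, against 49.9% and 60.9% of all TSS. H3K27me3 lay within 5 kb of 0 CR markers at E11.5 and 3 at E13.5 (Trp73, Ebf2 and Ebf3), and of 2 and 1 GABAergic markers. It lay near 0 and 1 progenitor markers (Pax6), 0 and 1 early neuronal and subplate markers (Cplx3) and 0 and 1 meningeal markers (Foxc1). Endothelial, microglial and erythroid markers had 0 at both stages. Of all TSS, 4.92% and 9.31% were marked by H3K27me3. The markers of most of the other cell types thus had more H3K27ac at E13.5, as did all TSS, and their part in the H3K27me3 contrast was not tested.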

How the data were processed

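ChIP-seq libraries of H3K27me3 (antibody Ab6002) and H3K27ac (Ab4729) were made from sorted cortical cells. The authors aligned reads to mm10 with Bowtie 1.1.2 and called peaks with MACS. Its version, the pooling of replicates and the use of input as control are not given in the sources used here. The authors deposited 1 list of peak starts and ends per group, and the score they deposited was 0 for every peak. Printed starts are 1 above those in the lists, whose format counts from 0. Overlaps, distances and Wilson intervals were computed in Python 3.11.15 with pandas 2.3.3 and numpy 2.4.6, after a check on simulated intervals. Genes came from GENCODE M21 and sequences from the RefSeq copy of GRCm38. The TSS is the 5′ end of the gene.

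The genes named are the developmental and signalling genes marked at both stages, the 10 genes with the most peaks and the 5 widest peaks per stage, the 10 shared peaks with the longest overlap and the CR genes. Some of these are not reported here. Other genes named were chosen after their values were seen. The members, families and lists were chosen with earlier results of these data known, and no list is independent support. No test was run.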

Additional observations from a re-analysis of the deposited data

How the results depend on the processing

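No paired analysis was possible because each stage has 1 list for its 2 libraries, and for the same reason no library could be left out. Of 70 values under other settings, 35 stayed within the CI of the reported value, and 35 did not. In every setting E13.5 had more marked TSS than E11.5 (by a factor of 1.16 to 2.82 in 11 settings) and more marked developmental factors (2.62 to 7.64 in 6 settings).

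With a reciprocal overlap of at least 50%, shared peaks were 1.41% of the E11.5 and 1.34% of the E13.5 list, and progenitor peaks overlapped 7.36% and 8.88%. Counting peaks within 1 kb as shared gave 4.81% and 4.82%, and peaks of at least 200 bp alone 1.65% and 1.85%. With these wider peaks the stages marked 1.36% and 2.50% of TSS, and 0.105% had a peak of both. A TSS window of 1 kb gave 1.89%, 5.34% and 0.196%, with 2.61% and 19.9% of developmental factors, 28.2% of Hox genes at E13.5, and H3K27ac at 64.6% of E11.5 and 81.6% of E13.5 H3K27me3 TSS (72.2% and 90.1% at 5 kb). A window of 10 kb gave 9.36%, 13.48% and 2.53%. Any annotated transcript start gave 9.27%, 13.1% and 2.55%, with 39.6% of developmental factors at E13.5. Chromosomes 1 to 19 alone gave 9.72% at E13.5, and a random reduction of the E13.5 list to the length of the E11.5 list 8.88%. A promoter of 5 kb held 15.6% of E11.5 and 30.2% of E13.5 peaks. Among settings chosen after seeing the data, any peak in the gene or within 5 kb of it gave 17.4%, 20.2% and 7.002% of genes, with 18.01% and 47.2% of developmental factors. The window sets these shares by construction. Without runs of 5 or more peaks, and for Hox genes without Hoxa, values stayed within the CI.

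Peaks without height, unknown depth and 1 list per stage limit all comparisons. Sites just under the peak threshold at the other stage cannot be recognized. H3K27me3 is known for broad domains, while these peaks are narrow, and domains were not analysed here.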

Other observations

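Genes for ribosomal and transfer RNA, which RNA polymerases other than polymerase II transcribe, lay near more peaks of E13.5 than of E11.5. Of 62 rRNA genes in the RefSeq annotation, 5 (8.06%) had an E11.5 peak within 500 bp and 25 (40.3%) an E13.5 peak, with 5 and 31 peaks of the lists, of which 1 was shared. Of 403 tRNA genes, 7 (1.74%) and 14 (3.47%) had such a peak. Peaks near tRNA genes made up 0.0783% (CI 0.0334 to 0.183) of the E11.5 list and 0.223% (CI 0.135 to 0.368) of the E13.5 list, and these CI overlap. For comparison, 1.89% and 5.34% of coding TSS had a peak within 1 kb, a wider window, so the direction was also that of coding genes. Genes for rRNA and tRNA are repeated. The alignment options placed a read that fits several copies at a single one of them.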
